A study of Mus musculus with 3 samples.

Results

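The genes described here were 9 genes of the germline and oocyte that embryonic stem cells also transcribe: Dppa5a, Ooep, Khdc3, Dppa3, Dppa2, Dppa4, Tdrd12, Tex19.1 and Utf1. They were taken by name from 3 tables of gene counts, which together listed 27886 genes. All 9 were listed in the mESC and CPCC tables and 5 of them in the CB table. The cells were male F1 mouse cells of the cross C57BL/6 x CAST/EiJ in 3 in vitro cultures, and the study names the maternal strain as C57BL/6J. mESCs were embryonic stem cells grown in 2i medium, which holds stem cells in a naive state with inhibitors of differentiation signals. CPCCs were cardiac precursor cell cultures that the study made from these stem cells by aggregation, plating and passage in an enrichment medium, and that it describes as heterogeneous. CBs were cardiac bodies, floating cell aggregates picked because they beat. The labels name no transgene, gene deletion or drug treatment for any of the cultures. By the study's methods the media differed. The mESC medium held LIF beside the inhibitors, and the CPCC enrichment medium held EGF and Fgf2. The aggregates that gave CPCCs and CBs were grown with ascorbic acid. Each culture was 1 sample, and the cultures were therefore compared without a test. The sample labels and column names did not say which stem cell clone a cell came from.

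Single cells were captured on microfluidic chips, and full-length cDNA of polyadenylated RNA was sequenced from 215 mESCs, 175 CPCC cells and 232 CB cells in 3, 2 and 3 library pools. The median cell held 1528316, 1437414 and 1397869 counts and 9532, 9252 and 6661 detected genes, respectively. The levels below are CPM, the counts of a gene summed over the cells of a culture or pool, per 1e6 summed gene counts. A gene was called detected in a cell at 1 or more counts. The CB sample is labelled as mature cardiac cells, but the cardiomyocyte gene Tnnt2 was detected in 14.7% of its cells and the fibroblast collagen gene Col1a2 in 76.3%. The values for CB therefore describe a mixed culture.

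These genes fall into a few known roles. Ooep and Khdc3 encode KH-type proteins of the subcortical maternal complex, a protein assembly of the oocyte and early embryo, and Dppa5a encodes a related RNA-binding protein. Dppa3 (also called Stella) protects the maternal genome from loss of DNA methylation in the zygote and marks primordial germ cells. Dppa2 and Dppa4 are SAP-domain proteins that bind each other and CpG-rich promoters. Tdrd12 is a Tudor-domain protein of the piRNA pathway, in which small RNAs silence transposons in the male germline. Tex19.1 encodes a mammalian germline protein that restrains retrotransposons. Utf1 encodes a chromatin-bound transcription cofactor of pluripotent cells and early germ cells. Naive stem cells resemble the inner cell mass, and many germline genes with CpG-rich promoters are known to be open in them.

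Among the 9 genes 2 pairs are neighbours in the mouse genome (GRCm38, GENCODE M21 annotation). Dppa5a (chr9:78367052-78368177, minus strand) and Ooep (chr9:78376109-78378725, minus strand) are next to each other, 7.93 kb apart. Dppa4 (chr16:48283733-48294237) and Dppa2 (chr16:48303908-48319723) are neighbours on the plus strand, 9.67 kb apart. Khdc3 lies on the same chromosome as Dppa5a and Ooep (chr9:73101836-73104438, plus strand) but not beside them. Dppa3 (chr6:122626410-122630272, plus strand) has Gdf3 on its left and Nanog on its right. Tdrd12 (chr7:35469098-35537745, minus strand) and Utf1 (chr7:139943789-139945112, plus strand) lie far apart on their chromosome. Tex19.1 (chr11:121146143-121148319, plus strand) lies next to its paralog Tex19.2. All are protein-coding.

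RefSeq promoter windows (GRCm38.p6) were matched for 5 of the 9 genes: Khdc3, Ooep, Tdrd12 with 2 starts, Tex19.1 and Utf1. The 250 bases before the RefSeq start are printed for Ooep, the gene with the smallest share of its mESC level in CPCCs, for Utf1, the gene with the largest share, and for Khdc3, whose window held no CG. The RefSeq starts of these 3 genes lie inside the genes as GENCODE draws them, so that all 250 bases of the Khdc3 stretch, 137 of the Ooep stretch and 67 of the Utf1 stretch fall within the GENCODE gene. Capitals mark CG dinucleotides, the sites of DNA methylation. The sequences run 5′ to 3′ on the strand of the gene, and the regions are chr9:78378589-78378838 (minus strand), chr7:139943606-139943855 (plus strand) and chr9:73102148-73102397 (plus strand), respectively.
Ooep: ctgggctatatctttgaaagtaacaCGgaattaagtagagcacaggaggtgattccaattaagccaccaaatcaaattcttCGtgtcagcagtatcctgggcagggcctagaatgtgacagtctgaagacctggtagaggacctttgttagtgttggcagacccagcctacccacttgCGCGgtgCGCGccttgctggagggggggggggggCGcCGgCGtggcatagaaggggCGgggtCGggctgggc
Utf1: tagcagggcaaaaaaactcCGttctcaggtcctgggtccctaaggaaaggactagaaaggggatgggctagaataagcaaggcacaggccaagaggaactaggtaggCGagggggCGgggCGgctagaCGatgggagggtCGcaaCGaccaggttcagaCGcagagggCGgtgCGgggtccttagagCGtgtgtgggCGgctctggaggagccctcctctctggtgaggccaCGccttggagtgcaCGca
Khdc3: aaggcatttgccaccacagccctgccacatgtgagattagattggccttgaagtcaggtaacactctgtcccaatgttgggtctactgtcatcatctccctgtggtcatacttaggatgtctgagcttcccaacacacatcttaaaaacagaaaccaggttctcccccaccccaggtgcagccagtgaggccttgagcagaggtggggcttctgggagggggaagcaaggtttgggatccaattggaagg

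In windows of 300 bases, which add the first 50 bases of the transcript, Utf1 held 17 CG, Tex19.1 16, Ooep 15, Tdrd12 11 or 9 by its start, and Khdc3 0. Over all 32851 promoter windows the median was 7 CG and the quartiles were 3 and 20. The windows of the genes with most CG thus stood between the median and the upper quartile of all promoters. Short motifs were searched on both strands. CACGTG, an E-box bound by MGA and MAX, was in 7.15% of all windows and in none of these. ATGCAAAT, the octamer bound by POU factors, was in 1.74% of all windows and in none of these. TCCCGC, the core of E2F sites, was in 20.0% of all windows and, of these genes, in the window of Tex19.1.

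In mESCs the 9 genes were broadly transcribed and spanned a wide range of levels. Dppa5a stood at 7985 CPM and ranked 4 among the 22439 genes listed in that table. Ooep followed at 482 CPM, Tex19.1 at 238, Tdrd12 at 192, Utf1 at 183, Dppa3 at 175, Dppa4 at 128, Dppa2 at 86.7 and Khdc3 at 60.7 CPM. Per kb of exonic length, the level of Dppa5a was 12899 CPM per kb, far above Ooep at 225 CPM per kb, whose pools ranged from 170 to 264. On this scale Dppa3 stood at 197, Utf1 at 149, Tex19.1 at 127, Dppa4 at 76.9, Tdrd12 at 44.2, Dppa2 at 35.4 and Khdc3 at 29.6 CPM per kb. The pool ranges of Ooep, Dppa3, Utf1 and Tex19.1 overlapped from each to the next in this order, as did those of Tdrd12, Dppa2 and Khdc3. Those of Dppa5a and Ooep, of Tex19.1 and Dppa4, and of Dppa4 and Tdrd12 did not.

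The mESC pools were close for Dppa5a, with 6736, 8757 and 8295 CPM in pools 1, 2 and 3. They were less close for Dppa2, with 113, 90.3 and 53.3 CPM, and for Khdc3, with 85.6, 39.5 and 62.4 CPM. No pool was highest for every gene. Most mESCs held all of these transcripts. Dppa5a was detected in 100% of mESCs (exact 95% interval 98.3 to 100), Ooep in 96.3%, and Khdc3, the lowest, in 78.1% (72.0 to 83.5). The other 6 genes were detected in 89.3% to 94.4% of cells. All 9 genes were detected together in 157 of 215 mESCs, and 8 or 9 of them in 86.0% of cells. The 30 mESCs with 7 or fewer had a median depth of 477565 counts, against 1714290 counts in the other 185 cells. The intervals of shares here and below are binomial and treat the cells as independent draws. Cells of a culture are not replicates, so the intervals do not cover differences between repeated cultures or pools. The reads carried no molecular identifiers, so several counts can come from the same molecule.

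The genes differed in how evenly mESCs held them. Over the 203 mESCs with at least 100000 counts, the coefficient of variation of the CPM was 0.40 for Dppa5a and 0.45 for Ooep. It was 0.63 to 0.80 for Dppa4, Utf1, Tex19.1, Tdrd12, Dppa2 and Dppa3, and 1.19 for Khdc3. The median Khdc3 count in a cell with the gene was 76, against 11638 for Dppa5a, and the part of counting error in the spread of Khdc3 was not tested. The lower and upper quartile of the CPM in single cells were 10.3 and 85.0 for Khdc3, and 304 and 567 for Ooep.

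**Figure D1:**
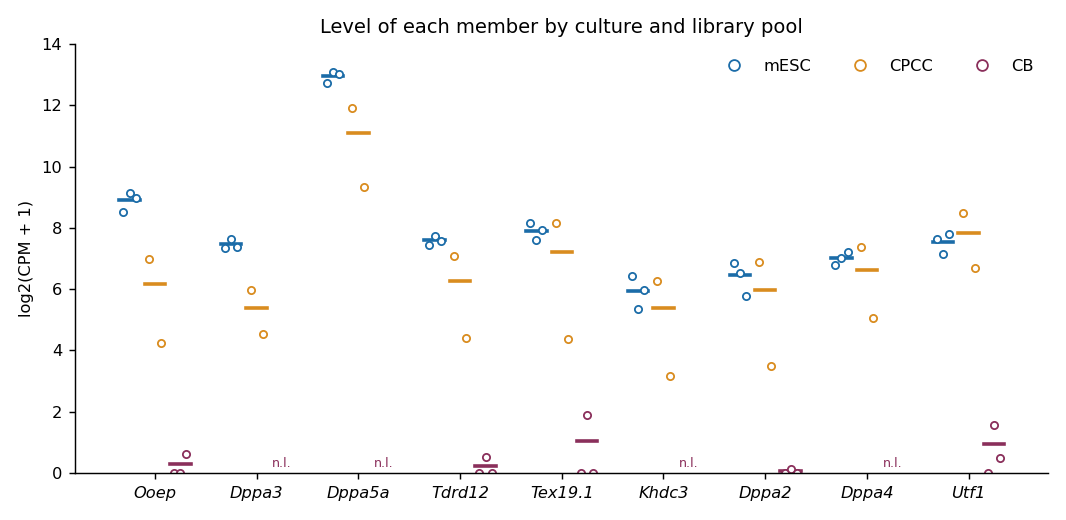
Level of each gene as log2(CPM + 1) (vertical axis) in mESC, CPCC and CB (colours). Open circles are library pools, short bars the whole culture, and n.l. marks genes not listed in the CB table. The mESC pools lie close together, the CPCC pools lie apart with pool 1 above pool 2 for every gene, and the CB values lie near 0.

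In CPCCs most of these genes were lower than in mESCs, but by very unequal amounts. Ooep was at 70.5 CPM, which was 14.6% of its mESC level, Dppa3 at 41.0 CPM (23.4%), Dppa5a at 2174 CPM (27.2%) and Tdrd12 at 75.6 CPM (39.4%). Tex19.1 at 147 CPM kept 61.7% of its mESC level, Khdc3 at 40.7 CPM 67.0%, Dppa2 at 61.3 CPM 70.8% and Dppa4 at 96.6 CPM 75.6%. Utf1 was the only one of the 9 above its mESC level, at 224 CPM or 123%. Of the 2 genes of the oocyte complex, Ooep was the most lost and Khdc3 stood at place 6 of 9 over the summed pools. In CPCC pool 1 alone Khdc3 kept 124% and Ooep 26.3%, and in pool 2 alone 13.2% and 3.76%.

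The log2 ratios were taken of CPM + 1, and the added 1 pulls the ratio of a low gene towards 0. The differences between CPCC and mESC were -2.76 for Ooep, -2.07 for Dppa3, -1.88 for Dppa5a, -1.33 for Tdrd12, -0.69 for Tex19.1, -0.57 for Khdc3, -0.49 for Dppa2, -0.40 for Dppa4 and 0.29 for Utf1. Of the 9 genes, 4 were at least 2-fold lower and 0 at least 2-fold higher. Over all 15471 genes compared, 8.36% were at least 2-fold lower and 17.5% at least 2-fold higher. The median log2 ratio of the 9 genes was -0.69, and that of all genes compared was -0.01. These genes were picked with earlier results of the same cells known, so the count describes them and supports nothing further.

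The 2 CPCC pools differed widely, and pool 1 was the higher for each of the 9 genes. Dppa5a was at 3810 CPM in pool 1 and 641 in pool 2, Ooep at 127 and 18.1, and Tex19.1 at 283 and 19.9. Dppa2 was at 116 and 10.3 CPM, Dppa4 at 165 and 32.6, and Khdc3 at 75.6 and 8.01. Both pools lay below every mESC pool for Ooep, Dppa3, Dppa5a and Tdrd12, the 4 genes that were at least 2-fold lower. For the other 5 genes the ranges of the CPCC and mESC pools overlapped. Without pool 2, the CPCC levels of Tex19.1, Khdc3, Dppa2 and Dppa4 were above those of mESC, with log2 ratios of 0.25, 0.31, 0.41 and 0.37, and 3 of the 9 genes were at least 2-fold lower. Without pool 1, Utf1 was lower, with a log2 ratio of -0.83, and 8 of the 9 were at least 2-fold lower. The stem cell gene Pou5f1 also differed between the pools, at 141 CPM in pool 1 and 16.7 in pool 2, and the part of the pool in these levels was not tested.

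The order of loss held at its ends across pools and varied in the middle. In each of the 6 pairs of a CPCC pool with an mESC pool, Ooep kept the smallest share of its mESC level. Utf1 kept the largest share in 5 pairs and the next largest in the other. Dppa5a took places 2 to 5 and Tdrd12 places 3 to 6, counted from the most lost. Dppa3 and Tex19.1 took places 2 to 7, Khdc3 4 to 8, Dppa4 5 to 8 and Dppa2 3 to 9, so their order among themselves did not hold across pools. The pairs share pools and are not independent.

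The share of cells in which a gene was detected was lower in CPCCs than in mESCs for each of the 9, Utf1 included. Ooep was detected in 46.3% of CPCC cells (exact 95% interval 38.7 to 54.0), against 96.3% of mESCs. Khdc3 was detected in 34.9% (27.8 to 42.4), Dppa2 in 48.0%, Dppa3 in 49.1% and Tdrd12 in 50.3%. Dppa4 and Tex19.1 were each detected in 54.3%, Utf1 in 71.4% (64.1 to 78.0) and Dppa5a in 82.9% (76.4 to 88.1). With every cell thinned to 430000 counts, in 157 CPCC cells and 193 mESCs, the CPCC shares were 46.5% for Ooep, 63.7% for Utf1 and 68.2% for Dppa5a. The thinned mESC shares of these genes were 99.5%, 96.4% and 100%. Utf1 thus stood higher over the whole CPCC culture while it was detected in a smaller share of the cells.

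**Figure D2:**
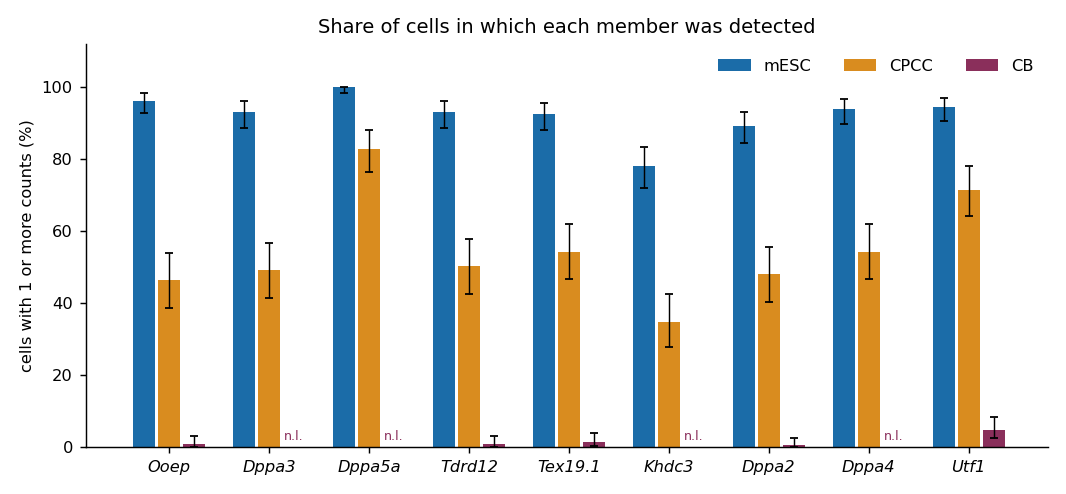
Share of cells in percent (vertical axis) in which each gene was detected at 1 or more counts in mESC, CPCC and CB, with exact 95% binomial intervals as error bars. The mESC bars reach 78.1% to 100%, the CPCC bars 34.9% to 82.9%, and the CB bars stay under 5%, while n.l. marks genes not listed in the CB table.

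At 1 or more counts, 21 of 175 CPCC cells held none of the 9 genes and 27 held 1. A further 60 held 2 to 7 and 67 held 8 or 9. At a stricter threshold of 10 or more counts a gene, CPCC cells tended to carry nearly all of these genes or none. Then 65 of the 175 cells carried none of the 9 and 69 carried 7 or more, among them 46 with all 9. Cells with 2 to 6 of the genes numbered 31. In mESCs 184 of 215 cells carried 7 or more at this threshold, and 7 carried none. Among those 7 were the shallowest cells of pools 1, 2 and 3, with 569, 798 and 7518 counts. Pool 1 of the CPCCs had 56 of 79 cells with 7 or more and 11 with none, whereas pool 2 had 13 of 96 with 7 or more and 54 with none. The CPCC cells with none at this threshold were not shallower, with a median of 1643954 counts against 1428309 counts in cells with 7 or more.

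**Figure D3:**
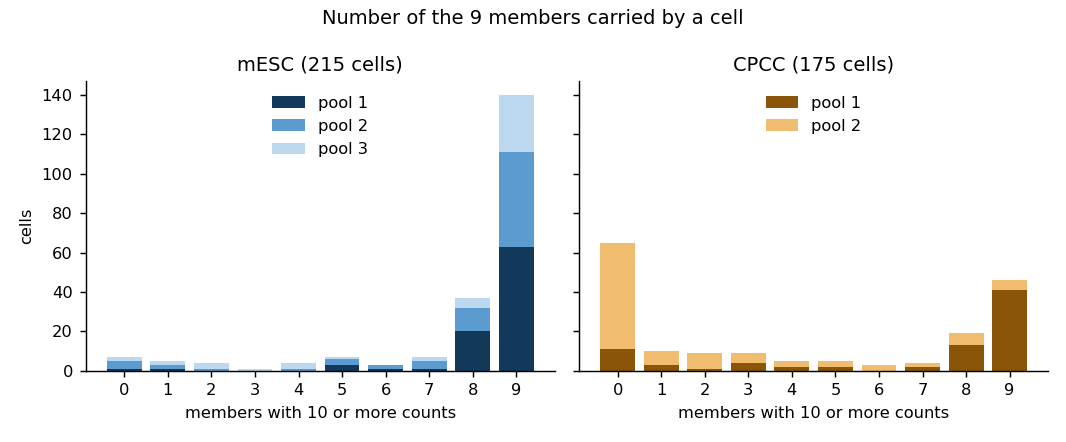
Number of cells (vertical axis) by how many of the 9 genes a cell carried at 10 or more counts (horizontal axis), for mESC and CPCC, with library pools as stacked shades. CPCC cells pile up at 0 (65 cells) and at 8 and 9, with pool 2 filling most of the 0 bar.

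The 31 CPCC cells in between were mostly of pool 2 (22 cells) and differed in which genes they carried. Dppa5a was carried by 29 of them and Utf1 by 28. Dppa4 was carried by 13, Tex19.1 by 12, Dppa2 by 7, Ooep and Tdrd12 by 6 each, Dppa3 by 5 and Khdc3 by 2. These cells had a median depth of 1050220 counts, below that of the cells with 7 or more genes, and the part of depth in the absence of the low genes was not tested. Of the 31 cells, 22 also carried Pou5f1.

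Pou5f1, the POU factor that defines pluripotent cells, separated the CPCC cells with these transcripts from those without. Pou5f1 was at 10 or more counts in 94 CPCC cells, 61 of pool 1 and 33 of pool 2. All 94 carried Utf1 at 10 or more counts, and 90 carried Dppa5a. Of the 94 cells 20 lacked Ooep at this threshold, 26 lacked Dppa3 and 39 lacked Khdc3, the gene with the lowest mESC level of the 9. The 94 cells held 99.5% of all Dppa5a counts of the culture and at least 96.7% of those of each other gene.

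Among these Pou5f1 cells the genes went in different directions against mESCs. Utf1 was at 454 CPM, or 248% of its level over all mESCs, Dppa4 at 192 CPM (150%), Dppa2 at 126 CPM (145%), Khdc3 at 83.5 CPM (137%) and Tex19.1 at 296 CPM (124%). Below the mESC level were Tdrd12 at 155 CPM (80.7%), Dppa5a at 4443 CPM (55.6%), Dppa3 at 84.2 CPM (48.0%) and Ooep at 145 CPM (30.0%). Pou5f1 itself, which chose the cells, was at 104% of its mESC level. Against the 194 mESCs that met the same Pou5f1 threshold, the shares were 245% for Utf1 and 29.6% for Ooep, so the choice of reference cells changed little. Of the other stem cell factors, Zfp42 was at 63.2%, Sox2 at 61.8% and Nanog at 57.9%.

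Both pools had Utf1 well above the mESC level in Pou5f1 cells, at 249% in pool 1 and 244% in pool 2. Both had Ooep, Dppa5a, Dppa3 and Tdrd12 below it, with Ooep at 33.9% and 17.2%, Dppa5a at 61.4% and 36.4%, Dppa3 at 45.0% and 58.0%, and Tdrd12 at 90.8% and 47.2%. The pools parted for the other genes. Dppa2 was at 173% in pool 1 and 54.5% in pool 2, Khdc3 at 160% and 60.6%, Tex19.1 at 152% and 32.4%, and Dppa4 at 166% and 97.9%. Pou5f1 was at 120% in the chosen cells of pool 1 and 50.9% in those of pool 2.

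**Figure D4:**
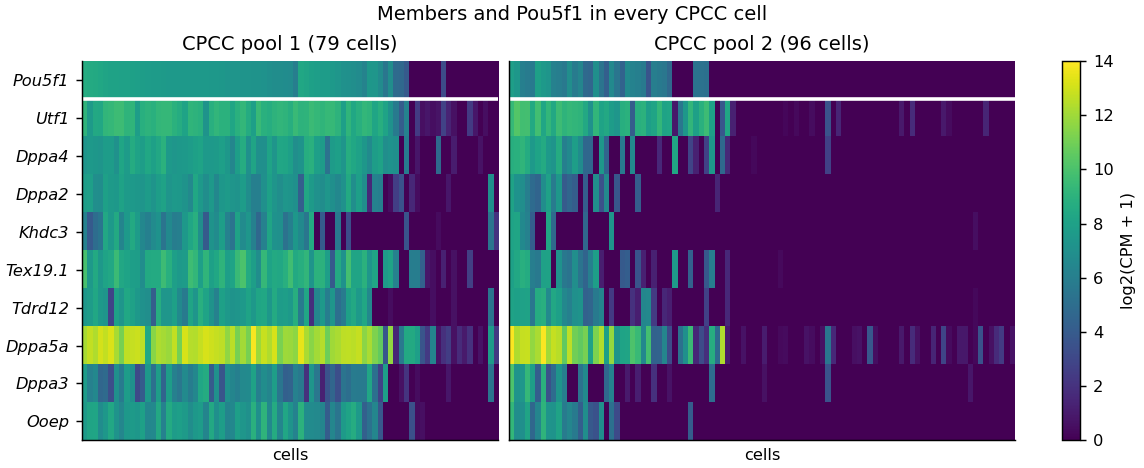
Level of Pou5f1 (top row) and of the 9 genes (rows, the most lost at the bottom) as log2(CPM + 1) (colour) in every CPCC cell (columns), for pool 1 with 79 cells and pool 2 with 96. Cells are ordered by the number of the genes at 10 or more counts and then by Pou5f1. Utf1 and Dppa5a reach furthest to the right of the other genes, and pool 2 has fewer cells with the genes.

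In the 81 CPCC cells with Pou5f1 under 10 counts these genes were at low levels. Ooep was at 0.191 CPM, Khdc3 at 0.127, Tdrd12 at 0.339, and Dppa2 and Dppa3 at 0.0706 CPM each. Dppa4 was at 6.26, Utf1 at 6.23 and Tex19.1 at 5.46 CPM. Dppa5a stood at 21.7 CPM, with 1 or more counts in 63.0% of the 81 cells (exact 95% interval 51.5 to 73.4) and in 31.4% of the 70 deeper ones after thinning. With every cell weighted equally, so that shallow cells count as much as deep ones, Dppa5a was at 110 CPM, Utf1 at 21.3, and Dppa2, Dppa3, Khdc3 and Tdrd12 at 1.6, 1.10, 0.703 and 1.74 CPM. The median of Dppa5a there was 0.57 CPM, against 4292 CPM in the Pou5f1 cells. Of the 81 cells, 16 carried any of the 9 genes at 10 or more counts. The smooth muscle actin gene Acta2 was at 7472 CPM in these cells and at 700.0 CPM in the 94 Pou5f1 cells, where it was detected in 75.5% of cells, or 54.0% after thinning, with a median of 2.12 CPM.

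**Figure D5:**
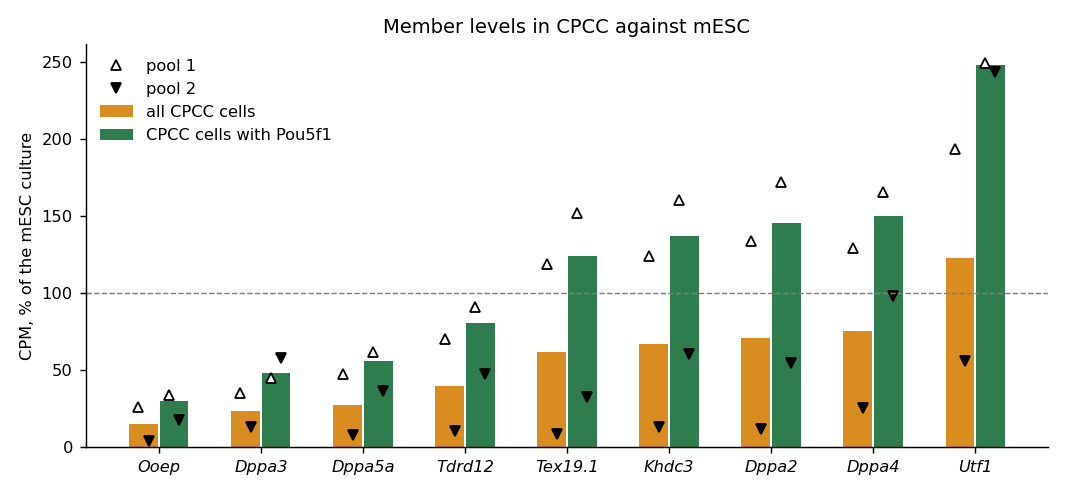
CPM of each gene in CPCC as percent of its level in the whole mESC culture (vertical axis), for all 175 CPCC cells and for the 94 cells with Pou5f1 at 10 or more counts. Bars are the sums over cells, triangles the same in pools 1 and 2, and the dashed line marks the mESC level. Over all cells the bar of Utf1 alone is above the line, and in Pou5f1 cells the bars of 5 genes are, with pool 2 below the line for 4 of those 5.

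In CBs the genes were nearly gone. Tex19.1 was at 1.06 CPM, Utf1 at 0.928, Ooep at 0.234, Tdrd12 at 0.169 and Dppa2 at 0.0325 CPM. Dppa3, Dppa4, Dppa5a and Khdc3 were not listed in the CB table, nor was Pou5f1, and no value was set for them. No gene listed there had a total under 10 counts over the 232 cells. Against mESC the log2 ratios were -8.61 for Ooep, -7.37 for Tdrd12, -6.86 for Tex19.1, -6.58 for Utf1 and -6.41 for Dppa2. The order of these ratios depends on the added 1 CPM, since as a share of the mESC level Dppa2 had the least left (0.0375%), then Ooep (0.0485%), Tdrd12 (0.0879%), Tex19.1 (0.446%) and Utf1 (0.508%). Against CPCC the log2 ratios were -5.86, -6.03, -6.17, -6.87 and -5.92 for Ooep, Tdrd12, Tex19.1, Utf1 and Dppa2. All 5 listed genes were at least 2-fold lower in both comparisons, where 14% of 16018 and 9.44% of 16764 genes compared were. The 2 comparisons share the CB sample. Both Utf1 and Ooep, the ends of the order in CPCCs, were under 1 CPM in CBs.

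The remaining counts in CBs came from few cells. Of 232 CB cells 17 held 1 or more counts of any of the 5 listed genes, which was 7.33% (exact 95% interval 4.33 to 11.5). They lay in pool 2 (13 cells) and pool 3 (4 cells), and none of the 69 cells of pool 1 held any. Pool 1 was the shallowest CB pool, with a median of 804581 counts a cell against 1750784 and 1596814 in pools 2 and 3. The part of depth in its 0 cells was not tested. Utf1 was detected in 11 cells, Tex19.1 in 3, Ooep and Tdrd12 in 2 each, and Dppa2 in 1 cell with 11 counts. Of the Utf1 cells 6 held 1 or 2 counts and 5 held 10 or more, and at 10 or more counts 11 CB cells in place of 17 held any of the genes. In 2 cells 2 of the genes were detected together. A single pool 2 cell gave 340 counts of Tex19.1, 94.7% of the gene's CB counts, and held 175 counts of Zfp42 and none of Nanog. Both cells with Tdrd12 held Zfp42 as well, with 42 and 196 counts. Of the 17 cells 5 held 1 or more counts of Zfp42, 6 held Sox2 and 6 held Col1a2, none of these last with Zfp42. Over all CB cells Zfp42 was detected in 4.31%, Sox2 in 31.9% and Col1a2 in 76.3%. The cell with the most Ooep, 45 counts, held 4604 counts of Col1a2, and 4 cells with Utf1 held Col1a2.

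Across CPCC cells the levels of the 9 genes varied together, and across mESCs they did so far less. Over the 157 CPCC cells with at least 430000 counts, the Spearman rho of the CPM had a median of 0.79 over the 36 pairs of genes, from 0.59 to 0.89. The closest pair was Dppa2 and Ooep at 0.89. Within pools 1 and 2 the median was 0.60 and 0.66, and within the 87 Pou5f1 cells of this depth it was 0.50. Over 193 mESCs the median was 0.21, from -0.09 to 0.56, and Dppa5a and its neighbour Ooep were the closest pair. The median over the mESC pools ran from 0.04 to 0.42. These correlations are descriptions, since cells of a pool were prepared together and their depths differ.

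Among 12233 other genes detected in at least 25% of the CPCC cells, those closest to the mean log2 level of the 9 genes were Gm6798 (Spearman rho 0.89 over the same 157 cells), Pou5f1 (0.88), Gm8935 (0.88), Hsp90aa1 (0.87) and Gm12346 (0.87). Hsp90aa1, a chaperone gene that all cells use, was at 4742 CPM in mESC, 2326 in CPCC and 770 in CB. Gm6798 went from 214 CPM in mESC to 40.6 in CPCC and was not listed in CB.

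The neighbours of the genes on the chromosome did not all follow them. Gdf3, a growth factor gene 16.3 kb from Dppa3 by RefSeq positions, as for the distances that follow, was at 266 CPM in mESC and 127 in CPCC, and was not listed in CB. Morc1, a germline gene beside Dppa2, went from 146 CPM in mESC to 57.0 in CPCC and 0.174 in CB. Ddx43, beside Ooep, went from 13.0 CPM to 2.83 and 1.01. Rsl24d1, 6.84 kb from Khdc3, was at 172, 141 and 83.7 CPM in mESC, CPCC and CB, and Rab27a, 3.76 kb away on the other side, at 1.54, 3.68 and 3.48 CPM.

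Some of the genes have near copies that could share reads, and how the counting treated such reads is not stated in the sources used here. Dppa3-ps, a processed pseudogene on the X chromosome, was 98.2% identical to the Dppa3 transcript over 451 aligned bases. It was listed at 94.6 CPM in mESC and 16.8 in CPCC. The level of Dppa3 is therefore uncertain, by an amount that was not tested. Dppa5b and Dppa5c, pseudogenes near Dppa5a, were 96.3% identical to it over 299 bases but were listed at 2.07 CPM each in mESC and 0.457 in CPCC, with the same value in every cell. Tex19.2 was 76.9% identical to Tex19.1 over 1202 bases and stood at 15.7, 9.95 and 0.349 CPM in mESC, CPCC and CB.

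Other genes of the same pathways differed in both directions between mESC and CPCC. Of the 13 genes of the piRNA and Tudor list with a ratio, 4 were at least 2-fold lower and 4 at least 2-fold higher, with a median log2 ratio of 0.43, beside 8.36% and 17.5% of all genes compared. Rnf17, a Tudor-domain gene and the highest of the list in mESC, went from 146 to 38.3 CPM, and Fkbp6, a cochaperone of piRNA biogenesis, from 92.0 to 17.2, whereas Tdrd7 went from 0.262 to 10.8 CPM. Only 6 of 18 further genes of the maternal complex and oocyte had a ratio. Of these Nlrp4f was lower, at 97.2 CPM in mESC and 14.8 in CPCC, and Zbed3 higher, at 4.06 and 20.8 CPM. Nlrp5, the scaffold gene of the complex, was not listed in either culture, and Padi6 was at 1.36 CPM in mESC.

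Of 34 other germline genes with a ratio, 15 were at least 2-fold lower in CPCC and 2 at least 2-fold higher, with a median log2 ratio of -0.68, beside 8.36% lower and 17.5% higher over all genes. Trap1a, the highest of them in mESC, went from 431 to 143 CPM, and Tuba3b, a testis tubulin gene whose reads may be shared with Tuba3a, from 126 to 7.05 CPM. Rhox9 went from 3.95 to 13.2 CPM. Of 11 primordial germ cell genes 5 were lower and 2 higher. Prdm14, a regulator of germ cell fate and of naive pluripotency, went from 77.0 to 7.56 CPM, and Lin28a from 1.53 to 12.4 CPM, while Ifitm3 was at 518 and 522 CPM. Among the 20 genes of the 2-cell-like state only Gm8300 had a ratio, at 0.144 CPM in mESC and 5.56 in CPCC. Gm5662 had the highest CPCC level of that list, 64.0 CPM in 3.43% of cells, and was not listed in mESC.

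For comparison, 12 of 15 pluripotency transcription factors were at least 2-fold lower in CPCC and 0 higher, with a median log2 ratio of -1.69, where 8.36% of all genes compared were lower and 17.5% higher. Nanog went from 654 to 188 CPM, Tfcp2l1, a naive-state factor, from 368 to 24.5, and Nr0b1 from 120 to 87.4. A further list held 19 genes of the PRC1.6 complex, of DNA methylation or its removal, and of other regulators of germline genes. Of these 4 were lower and 4 higher, the latter a share near that of all genes. Trim28, the highest, went from 610 to 382 CPM, Tet2 from 58.6 to 21.4, and Dnmt3l, the partner of the new-methylation enzymes, from 24.3 to 153 CPM.

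Against mESC, at least 2-fold lower levels in CB were found for 14% of all genes compared and at least 2-fold higher levels for 30.8%, with a median log2 ratio of 0.29. Of 24 other germline genes with a ratio to mESC 16 were at least 2-fold lower and 0 higher, and the median log2 ratio was -1.81. For the piRNA and Tudor list 5 of 10 were lower and 3 higher. For the list of PRC1.6 and DNA methylation genes 9 of 19 were lower and 2 higher. Of 11 primordial germ cell genes 6 were lower and 1 higher, and of the maternal complex and oocyte list only 2 genes had a ratio, 1 lower and 1 higher. Dnmt3l was at 0.248 CPM in CB. Against CPCC, 17 of 23 other germline genes were lower and 0 higher, and 5 of 10 of the piRNA and Tudor list were lower and 0 higher, where 9.44% of all genes compared were lower, 21.3% were higher and their median was 0.22.

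Markers of other cell types differed between the cultures too. Over all genes compared, 17.5% were at least 2-fold higher and 8.36% lower in CPCC than in mESC, and 30.8% were higher in CB. All 4 smooth muscle genes with a ratio were at least 2-fold higher in CPCC than in mESC. Tagln went from 1.21 CPM to 1214 in CPCC and 417 in CB, Myl9 from 1.86 to 368 and 297, and Myh11 from 0.0342 to 1.45 and 6.78. Of the fibroblast list 3 of 6 were higher in CPCC and 5 of 6 in CB, with Col1a2 at 0.179, 140 and 1972 CPM, Fn1 at 476, 809 and 543, and Fbln1 at 44.7, 27.2 and 190 CPM. Of the cardiomyocyte list 3 of 7 were lower and 2 higher in CPCC, and 8 of 9 were higher in CB, with Ttn at 39.1, 17.4 and 128 CPM, Actn2 at 14.3, 3.47 and 3.02, and Tnnt2 at 2.21, 84.9 and 40.4. Of the endothelial list 2 of 3 were higher in each, with Plvap at 17.1 CPM in CPCC and 75.4 in CB, whereas Pecam1 was at 57.7, 30.4 and 22.8 CPM in mESC, CPCC and CB. The part of the cell mixture in each ratio of whole cultures was not tested.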

How the data were processed

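The authors captured single cells on Fluidigm C1 chips and made full-length cDNA of polyadenylated RNA. They aligned paired reads to GRCm38 (mm10) with STAR 2.7 in Partek Flow with Ensembl annotation. The authors deposited 1 table per culture. The CPCC table held whole-number counts, and the mESC and CB tables held estimated counts as deposited, with fractional parts (tolerance 0.001) in 26.4% and 27.4% of values above 0. The counting model and use of strand are not given in the sources used here.

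Tables were linked to samples by culture name and cells to pools by column name. No column of values was left unused, and 2 CPCC columns were empty. Rows without a gene (208) and 23 date-like symbols of the CPCC table (0.139% of its counts) were left out. No column name or library number was shared between cultures. The lowest gene total was 10 counts in mESC and CB and 8 in CPCC, so an unlisted gene has no value and was not set to 0.

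Counts were summed over cells and scaled to CPM, and log2 ratios used a pseudocount of 1 CPM. Genes were compared where listed in both tables at 1 CPM or more in at least one of them. Shares carry exact Clopper-Pearson 95% intervals. Rounded counts were thinned to 430000 a cell for shares. With 1 sample per culture no test was run, and pools were not used as replicates. Scaling alternatives used edgeR 4.0.16 (TMM) and DESeq2 1.42.0 size factors under R 4.3.3, other steps Python 3.11.15, pandas 2.3.3 and SciPy 1.17.1. The calculations were checked on simulated data. The genes and the gene lists were chosen with earlier results of these data known. Named genes were the 9 members, Pou5f1, Sox2, Nanog and Zfp42, the 5 closest genes over CPCC cells, chromosome neighbours, and of each list the highest in mESC and those with the lowest and highest ratio of CPCC to mESC. Acta2, Nlrp5, Padi6, Gm5662, Tuba3a and the copies of members were named beyond this rule.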

Additional observations from a re-analysis of the deposited data

How the results depend on the processing

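The CB results kept their direction under every alternative run, 61 of 61 values against mESC and 56 of 56 against CPCC. Of 108 values of single genes between CPCC and mESC 103 did, and the 5 that turned each came from leaving out a CPCC pool: without pool 2, Tex19.1 (0.25), Khdc3 (0.31), Dppa2 (0.41) and Dppa4 (0.37), and without pool 1, Utf1 (-0.83). For these genes the other pool alone gave -3.52, -2.78, -2.96, -1.94 and 0.95, in the same order. The cause was not tested. The median log2 ratio of the 9 genes between CPCC and mESC was -0.73 with DESeq2 size factors and -0.66 with a pseudocount of 10 CPM. It ran from -2.96 to 0.25 when a pool was left out, and the number at least 2-fold lower from 3 to 8. For CB over mESC the median was -6.99 with TMM, -7.02 with DESeq2 size factors, -7.12 when cells were weighted equally, -9.35 and -4.31 at pseudocounts of 0.1 and 10 CPM, and -7.59 to -6.39 without a pool. For CB over CPCC these were -6.12, -6.11, -6.12, -7.77, -3.07 and -6.86 to -3.95. Among members at 1 CPM or more in both cultures, 1 was left in each CB comparison, Tex19.1, and it was lower in both, with a log2 ratio of -6.17 against CPCC. The gene at the middle of the order of loss kept 60.8% of its mESC level when cells were weighted equally and 11.9% to 119% without a pool. The middle gene in Pou5f1 cells stood at 136% with Pou5f1 at 50 or more counts and at 113% with Sox2 in place of Pou5f1. TMM moved the median of all genes from 0.29 to 0.11 for CB over mESC, and from 0.22 to 0.04 for CB over CPCC. No paired analysis was possible because each culture is 1 sample and the result comes from no test.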

Other observations

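The CPCC levels were also taken over cells chosen by another stem cell factor than Pou5f1. In the 89 cells with Nanog at 10 or more counts Ooep stood at 30.9% of its mESC level, Dppa5a at 56.1%, Tex19.1 at 125% and Utf1 at 248%. In the 88 cells with Sox2 at 10 or more counts these were 27.7%, 50.3%, 113% and 214%. Summed over the pools, the same 5 genes as in the Pou5f1 cells (Utf1, Dppa4, Dppa2, Khdc3 and Tex19.1) were above the mESC level in both sets. The pools of these sets are not given apart. In the Pou5f1 cells of pool 2 each of the 5 but Utf1 was below that level. Of the Nanog cells 84 and of the Sox2 cells 77 were also Pou5f1 cells, so the sets are no independent check.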
